A study of Homo sapiens with 12 samples.

Results

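PLTP, ABCA12 and 5 further genes of lipid transfer, lipid hydrolysis and lipid export (CEL, ABCA1, LCAT, LIPC and LIPG) were followed across all groups of an array study of HepG2 cells. PLTP and ABCA12 were chosen by their measured response to Nutlin in cells with the control hairpin, where both were among the highest log2 fold changes, and the other members were added by function. A member had a value where a probe set named it and no other gene. This held for 5 of the 7 members, each with 1 such probe set, out of 18417 genes measured in this way. LCAT was only in 1 probe set that the annotation shares with SLC12A4, and for LIPC no probe set was listed, so neither gene is given a value. PLTP lies on chromosome 20, ABCA12 on chromosome 2, CEL and ABCA1 on chromosome 9, LCAT on chromosome 16, LIPC on chromosome 15 and LIPG on chromosome 18.

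These genes act on the lipids of lipoproteins and membranes. ABCA1 loads cholesterol and phospholipid onto apolipoprotein A-I to form new high-density lipoprotein (HDL), LCAT esterifies the cholesterol that HDL carries, and PLTP, a secreted plasma protein, moves phospholipids between lipoproteins and remodels HDL. LIPC (hepatic lipase) and LIPG (endothelial lipase) hydrolyse lipoprotein lipids at the vessel surface, and CEL is a bile-salt-dependent lipase best known from the exocrine pancreas. ABCA12 is best known from the skin, where it loads lipids into the lamellar granules of keratinocytes.

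HepG2 is an established human hepatoma line, used here with a non-relevant control hairpin (sh-con) or with a hairpin against p53 (sh-p53). The treatments, of 24 h, were DMSO (the vehicle), 10 uM Nutlin, which blocks the binding of p53 to its ubiquitin ligase MDM2, or 0.5 mM AICAR, which activates the energy-sensing kinase AMPK. The series presents both compounds as stimulators of p53. The 6 groups (sh-con DMSO, sh-con Nutlin, sh-con AICAR, sh-p53 DMSO, sh-p53 Nutlin and sh-p53 AICAR) held 2 Affymetrix arrays each, and the cells had been plated in duplicate as biological replicates. Each hairpin was present in 1 line, so an effect of p53 knockdown and any other difference between the lines cannot be told apart. The p-values rest on the spread between the duplicates of all 6 groups, drawn in the fit towards a value common to all genes. In bulk RNA, fewer cells with a transcript and less of it per cell cannot be told apart.

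Values are log2 signals summarised by RMA, and a difference of 1 is a 2-fold change. The median array signal ranged from 5.64 to 5.84, and duplicates correlated across genes at Pearson r = 0.983 to 0.994, genes not being independent replicates. Of the hepatocyte markers, 9 of 10 were measured, with means from 11.05 to 12.8. The p53 targets CDKN1A and MDM2 differed between Nutlin and DMSO by 2.84 and 1.59 in sh-con. In sh-p53 they still rose with Nutlin, by 1.39 ± 0.13 (SE, adjusted p = 6.67e-05, limma) and 1.32 ± 0.14 (adjusted p = 9.08e-05, limma). The transcript that the hairpin targets was not analysed here.

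The sequence before the start of transcription is shown for PLTP and ABCA12, which had the highest Nutlin responses among the members, and for CEL and ABCA1, which stand in contrast to them in response or in motif content. RefSeq promoter windows of build GRCh38.p14, which run from 250 bases before to 50 bases after an annotated start, were held for 6 of the 7 members, in 8 windows, and none was held for LCAT. Only the 250 bases before the start are printed, 5′ to 3′ on the strand of the gene, and capitals mark a motif match. The PLTP window is chr20:45912156-45912405 (minus strand), that of ABCA12 chr2:215138627-215138876 (minus strand), that of CEL chr9:133061731-133061980 (plus strand) and that of ABCA1 chr9:104928156-104928405 (minus strand).
PLTP: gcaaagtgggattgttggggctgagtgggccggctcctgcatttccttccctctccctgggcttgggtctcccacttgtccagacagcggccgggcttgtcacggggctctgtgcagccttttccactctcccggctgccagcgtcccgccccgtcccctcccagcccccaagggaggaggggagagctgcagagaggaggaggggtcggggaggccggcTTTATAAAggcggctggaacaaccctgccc
ABCA12: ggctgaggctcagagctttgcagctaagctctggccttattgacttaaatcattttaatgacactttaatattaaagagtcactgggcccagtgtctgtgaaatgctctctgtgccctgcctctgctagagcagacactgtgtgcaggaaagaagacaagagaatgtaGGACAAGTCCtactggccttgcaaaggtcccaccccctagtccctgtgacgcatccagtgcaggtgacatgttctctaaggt
CEL: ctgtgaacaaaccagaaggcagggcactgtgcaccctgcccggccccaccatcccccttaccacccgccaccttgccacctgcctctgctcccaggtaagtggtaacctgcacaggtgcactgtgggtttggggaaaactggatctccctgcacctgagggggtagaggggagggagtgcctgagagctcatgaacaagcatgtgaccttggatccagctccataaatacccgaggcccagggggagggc
ABCA1: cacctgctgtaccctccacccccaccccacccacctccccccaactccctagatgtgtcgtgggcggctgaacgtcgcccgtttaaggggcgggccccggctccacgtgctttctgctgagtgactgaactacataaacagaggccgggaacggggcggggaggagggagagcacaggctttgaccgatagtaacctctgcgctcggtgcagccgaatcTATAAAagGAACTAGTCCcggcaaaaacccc

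All 8 windows were searched on both strands for a p53 decamer, the LXR repeat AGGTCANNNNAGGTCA, the FXR repeat AGGTCANTGACCT and the TATA box TATAAA. The p53 decamer is only a part of the p53 consensus site, so 1 decamer is not a full site. The printed ABCA12 window held 1 p53 decamer, GGACAAGTCC, from 82 to 73 bases before the start. The ABCA1 window held 1 decamer, GAACTAGTCC, from 23 to 14 bases before the start, and a TATA box from 31 to 26 bases before it. The PLTP window held a TATA box on each strand, overlapping each other, the one on the gene's strand from 28 to 23 bases before the start and the one on the opposite strand from 30 to 25. The other ABCA12 window held a TATA box after its start, and the CEL, LIPC and LIPG windows and the other PLTP window held none of the 4 motifs. Over all 35116 windows, the decamer was found in 6.63%, the TATA box in 11.5%, the LXR repeat in 0.0199% and the FXR repeat in 0. A match describes these letters only, and nothing follows for a factor from its presence or absence in this window.

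PLTP, the plasma phospholipid carrier, rose over the sh-con groups from DMSO to AICAR to Nutlin, an order that ABCA12 and CEL shared. The 2 arrays of each group read 7.44 and 7.39 in sh-con DMSO, 9.11 and 8.88 in sh-con AICAR and 10.96 and 10.89 in sh-con Nutlin. In sh-p53 they read 7.29 and 7.20 with DMSO, 7.36 and 7.0 with Nutlin and 7.13 and 7.17 with AICAR. All 6 sh-p53 arrays lay below the lowest sh-con array, and the 3 sh-con groups did not overlap each other. The within-group SD was 0.13. The steps from sh-con Nutlin to sh-con AICAR (1.93) and on to sh-con DMSO (1.57) exceeded this spread, whereas the step from sh-con DMSO to sh-p53 DMSO (0.176) was under 2 SD and the sh-p53 groups with Nutlin and with AICAR overlapped.

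ABCA12, the keratinocyte lipid transporter, was high in 1 group only. Its arrays read 7.79 and 7.64 in sh-con Nutlin, against 3.78 and 3.82 in sh-con DMSO and 4.38 and 4.29 in sh-con AICAR. In sh-p53 they read 3.82 and 3.84 with DMSO, 3.86 and 3.95 with Nutlin and 3.89 and 3.87 with AICAR. All arrays outside sh-con Nutlin were below 4.58, the level under which genes were left out as dim, where a signal holds mostly background and differences are understated. The mean of ABCA12 over all arrays was 4.577, at that level, and 3.95 without the sh-con Nutlin arrays, so it passed the filter only through the group in which it was high. Its values are therefore given as a description, with no test, and the counts of members called are over the other 4. After sh-con Nutlin the order was sh-con AICAR, 3.38 lower, and then sh-p53 Nutlin, a further 0.429 lower, and the last 4 groups followed each other in steps under 2 SD (within-group SD 0.0584).

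CEL, the bile-salt-dependent lipase, was dim but had the same leading groups. Its arrays read 6.85 and 6.65 in sh-con Nutlin, 5.84 and 5.53 in sh-con AICAR and 4.50 and 4.87 in sh-con DMSO. In sh-p53 they read 4.57 and 4.54 with DMSO, 4.95 and 4.97 with Nutlin and 4.99 and 5.22 with AICAR. The steps from sh-con Nutlin to sh-con AICAR (1.06) and on to sh-p53 AICAR (0.581) exceeded the within-group SD of 0.164, and the other 4 groups were not separated by more than 2 SD from their neighbours. Its mean over all arrays was 5.29, and 5.0 without sh-con Nutlin. CEL has a near-identical pseudogene copy beside it, CELP, and probe sets of such pairs can measure each other, so values of CEL are uncertain in their source.

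ABCA1, the cholesterol exporter, had a narrow range. Its arrays read 8.92 and 8.92 in sh-con DMSO, 9.25 and 8.99 in sh-con Nutlin and 8.71 and 8.22 in sh-con AICAR. In sh-p53 they read 8.77 and 8.54 with DMSO, 8.55 and 8.62 with Nutlin and 7.97 and 8.02 with AICAR. The 5 highest groups followed each other in steps under 2 SD (within-group SD 0.176), and sh-p53 AICAR stood 0.468 below the next. LIPG, endothelial lipase, was ordered by AICAR instead. Its arrays read 7.97 and 7.65 in sh-con AICAR, 7.45 and 7.60 in sh-p53 AICAR, 6.94 and 6.72 in sh-con Nutlin and 6.47 and 6.43 in sh-con DMSO. The remaining sh-p53 groups were lowest, at 5.77 and 5.80 with DMSO and 5.96 and 6.06 with Nutlin. Both AICAR groups of LIPG lay above every other array (within-group SD 0.122).

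**Figure D1:**
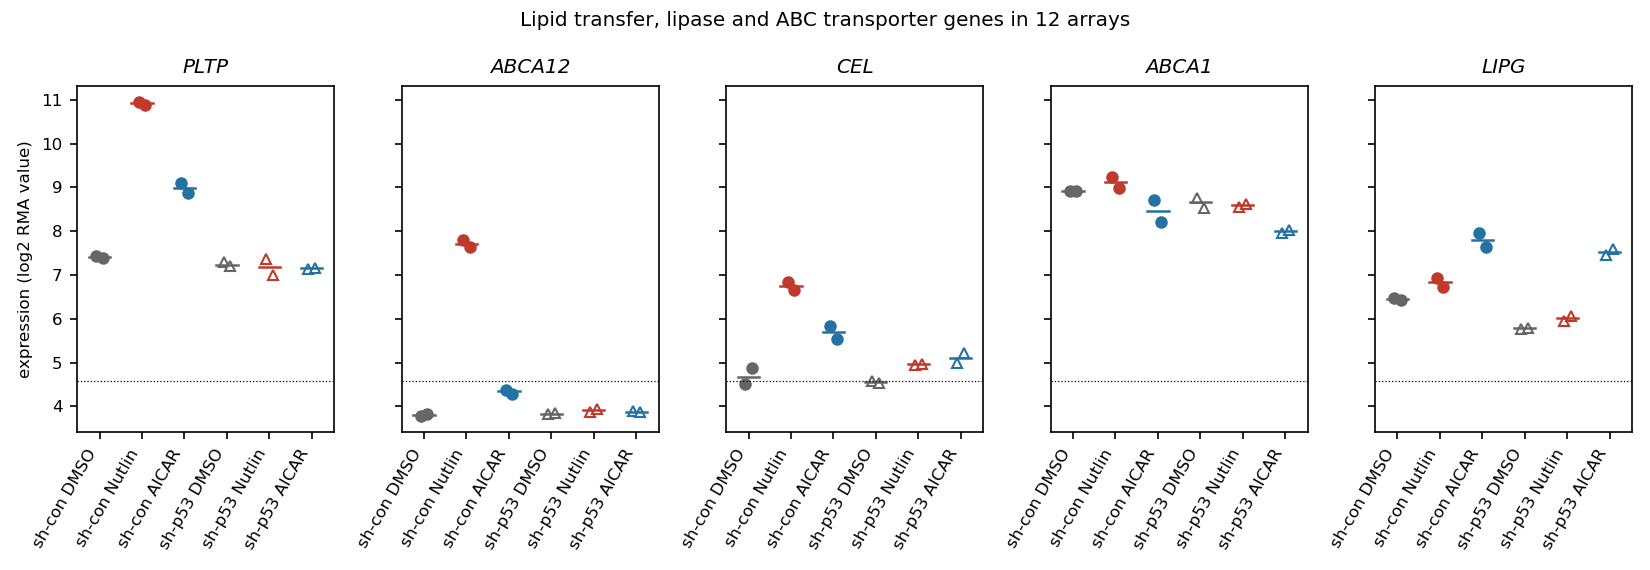
Log2 signal of the 5 measured members in each of the 12 arrays, 1 panel per gene, by group, with circles for sh-con, open triangles for sh-p53, a short line for the mean of a group and a dotted line at 4.58, the level below which genes were left out as dim. PLTP, ABCA12 and CEL are highest in the sh-con Nutlin arrays, LIPG is highest in both AICAR groups, and ABCA1 varies little.

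Nutlin in sh-con cells is the comparison that chose PLTP and ABCA12, so its values are a description with no test. ABCA12 read 3.91 ± 0.13 (SE) higher with Nutlin, and since its sh-con DMSO arrays were below the dim level, this can understate the difference and is given no fold or rank. PLTP had the 4th highest of all 13813 log2 differences, 3.51 ± 0.15 (11.4-fold). CEL was 31st, at 2.07 ± 0.16 (4.2-fold). LIPG differed by 0.38 ± 0.14 and ranked 2170th, and ABCA1 differed by 0.20 ± 0.16, with a 95% interval from -0.14 to 0.54, and ranked 4504th. CEL, LIPG and ABCA1 were added by function, but with earlier results of these data known, so their values here are no independent support. For these members both Nutlin arrays lay above both DMSO arrays, as they did in 36.5% of all genes tested. For PLTP and ABCA12 this follows from the choice. Just inside the choice stood PLTP at 3.51, and the next member outside it was CEL at 2.07. The median gene differed by 0.012.

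The sh-con Nutlin arrays also set the comparison of the lines under Nutlin. The log2 difference of sh-p53 from sh-con was -3.75 for PLTP, -3.8 for ABCA12, -1.80 for CEL, -0.82 for LIPG and -0.54 for ABCA1 (SE 0.13 to 0.16), again without a test. The sh-p53 arrays lay below the sh-con arrays for CEL, LIPG and ABCA1, as they did in 28.7% of all genes tested, which is a description only. PLTP and ABCA12 are left out here, because their high sh-con Nutlin arrays are those of the choice. As differences of the Nutlin response between the lines, PLTP was the 2nd lowest of all genes at -3.57 ± 0.21, and ABCA12 read -3.83 ± 0.18, with 3 of its 4 groups below the dim level. CEL was the 41st lowest at -1.67 ± 0.22, and ABCA1 (-0.27 ± 0.23) and LIPG (-0.15 ± 0.20) were smaller than 2 SE. Against AICAR in the same sh-con line, Nutlin gave log2 differences of 1.93 for PLTP, 1.06 for CEL and 0.66 for ABCA1, while LIPG was 0.98 lower with Nutlin. ABCA12 read 3.38 higher with Nutlin than in the dim AICAR arrays.

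Nutlin in sh-p53 cells uses no array of the choosing contrast and was tested. In these cells 0 of the 4 members tested passed the threshold, a Benjamini-Hochberg adjusted p under 0.05 over all genes in limma, at which 0.0796% of all genes, 11 in number and all higher, were called. PLTP differed by -0.06 ± 0.15, with a 95% interval from -0.37 to 0.25 (adjusted p = 0.984, limma). The interval is not set against the PLTP difference in sh-con, since PLTP was chosen by that value. CDKN1A and MDM2 rose in the same sh-p53 arrays, and why PLTP and these genes differed was not tested. ABCA12 read 0.08 higher with Nutlin, with all arrays below the dim level. CEL differed by 0.40 ± 0.16, from 0.07 to 0.73, with an unadjusted p of 0.0202 and an adjusted p of 0.648 in limma. LIPG differed by 0.23 ± 0.14 (adjusted p = 0.92, limma) and ABCA1 by -0.07 ± 0.16 (adjusted p = 0.984, limma). Both Nutlin arrays lay above both DMSO arrays for CEL and LIPG, 2 of these 4 members, against 14.2% of all genes.

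AICAR raised PLTP in sh-con cells and not detectably in sh-p53 cells. With AICAR in sh-con, 3 of 4 members were higher and 1 was lower, against 14.6% of all genes higher and 23.2% lower. PLTP rose by 1.57 ± 0.15 (2.98-fold, adjusted p = 2.8e-07, limma), LIPG by 1.36 ± 0.14 (2.56-fold, adjusted p = 1.13e-06) and CEL by 1.00 ± 0.16 (2.01-fold, adjusted p = 7.52e-05). ABCA12 read 0.53 higher, with all 4 arrays compared below the dim level. ABCA1 fell by 0.46 on the log2 scale, ± 0.16 (adjusted p = 0.0341, limma). The value was -0.21 without array 2 of sh-con AICAR (adjusted p = 0.415, limma) and -0.70 without array 1. The call was also lost at nearly the same value without array 1 or array 2 of sh-con DMSO (-0.45 and -0.46, adjusted p = 0.133 and 0.102, limma) and in a fit of the compared groups alone (-0.46, adjusted p = 0.061), and under quantile normalisation (-0.37, adjusted p = 0.0621). This comparison shares its sh-con DMSO arrays with the one that chose PLTP and ABCA12.

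With AICAR in sh-p53, 2 of 4 members were higher and 1 lower, against 16.2% and 21.6% of all genes. LIPG rose by 1.74 ± 0.14 (3.34-fold, adjusted p = 9.38e-08, limma), the 43rd highest difference of all genes. CEL rose by 0.55 ± 0.16 (adjusted p = 0.0105, limma), a call lost without array 2 of sh-p53 DMSO or of sh-p53 AICAR (0.54 and 0.44, adjusted p = 0.0623 and 0.0889) and when arrays were normalised again or centred (0.40 in both, adjusted p = 0.0652 and 0.076). Of the pancreatic acinar markers, 2 of 5 tested rose in the same comparison, and 0 of 5 rose with AICAR in sh-con. Their part in the CEL values was not tested. ABCA1 fell by 0.66 on the log2 scale, ± 0.16 (adjusted p = 0.00372, limma), a call lost without array 1 of sh-p53 DMSO (-0.55, adjusted p = 0.0527). PLTP differed by -0.09 ± 0.15, with a 95% interval from -0.40 to 0.22 (adjusted p = 0.647, limma), and ABCA12 read 0.05 higher among dim arrays.

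The difference of the AICAR response between the lines was tested itself, as an interaction, which again uses the sh-con DMSO arrays. It was lower in sh-p53 for 1 of 4 members, against 0.709% of all genes. That member was PLTP, at -1.66 ± 0.21, with a 95% interval from -2.10 to -1.23 (adjusted p = 0.000366, limma), the 17th lowest of 13813 genes. The adjusted p of PLTP in limma ranged from 2.25e-05 to 0.00377 over 16 alternatives, and its value from -1.78 to -1.55. For CEL the interaction was -0.45 ± 0.22 (interval -0.92 to 0.02, adjusted p = 0.425, limma). ABCA1 (-0.21 ± 0.23, adjusted p = 0.8, limma) and LIPG (0.38 ± 0.20, adjusted p = 0.471, limma) did not pass either. ABCA12 read -0.49, from arrays that were all dim.

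**Figure D2:**
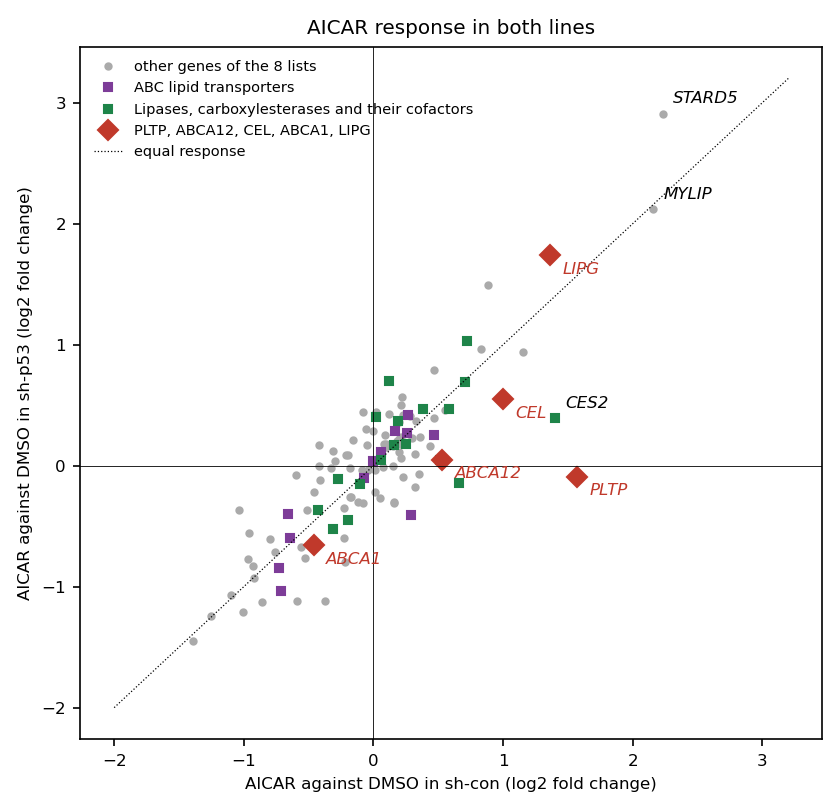
Log2 fold change of AICAR against DMSO in sh-con (horizontal axis) and in sh-p53 (vertical axis) for the 5 members (red diamonds), ABC lipid transporters (purple squares), lipases and carboxylesterases (green squares) and the other genes of the 8 lists (grey), with a dotted line for an equal response. PLTP lies at 1.57 and -0.09, below the line, while LIPG lies at 1.36 and 1.74.

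Without a stimulator, LIPG was the member called between the lines, in a comparison that shares the sh-con DMSO arrays with the choosing contrast. In DMSO, 1 of 4 members was lower in sh-p53, against 0.384% of all genes, and none was higher (0.261% of all genes). LIPG fell by 0.67 on the log2 scale, ± 0.14 (interval -0.97 to -0.36, adjusted p = 0.0375, limma). The call was lost without any 1 of the 4 arrays (adjusted p = 0.247 to 0.373, limma) and with arrays centred (adjusted p = 0.0799), while the value stayed between -0.68 and -0.62 in all alternatives. PLTP (-0.18 ± 0.15), CEL (-0.13 ± 0.16) and ABCA1 (-0.26 ± 0.16) each had an adjusted p of 0.999 in limma, and ABCA12 read 0.03 higher in sh-p53.

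Under AICAR, PLTP and CEL were lower in sh-p53 than in sh-con, in a comparison that uses no array of the choosing contrast. In this comparison 2 of 4 members were lower in sh-p53, against 4.69% of all genes lower and 4.13% higher, and the sh-p53 arrays lay below the sh-con arrays in 4 of 4, against 19.5% of all genes. PLTP was lower by 3.58-fold, a log2 difference of -1.84 ± 0.15 (interval -2.15 to -1.53, adjusted p = 2.86e-07, limma), the 23rd lowest of all genes. CEL was lower by a log2 difference of -0.58 ± 0.16 (adjusted p = 0.0271, limma). The CEL call was lost without array 1 of sh-con AICAR (-0.43, adjusted p = 0.171), array 1 of sh-p53 AICAR (-0.47, adjusted p = 0.219) or array 2 of sh-p53 AICAR (-0.70, adjusted p = 0.0515), all in limma. ABCA12 read 0.46 lower in sh-p53, among dim arrays. ABCA1 differed by -0.47 ± 0.16 (adjusted p = 0.0853, limma). The ABCA1 value was -0.22 without array 1 of sh-con AICAR (adjusted p = 0.491) and -0.71 without array 2 (adjusted p = 0.0129, limma), and LIPG differed by -0.28 ± 0.14 (adjusted p = 0.264, limma).

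**Figure D3:**
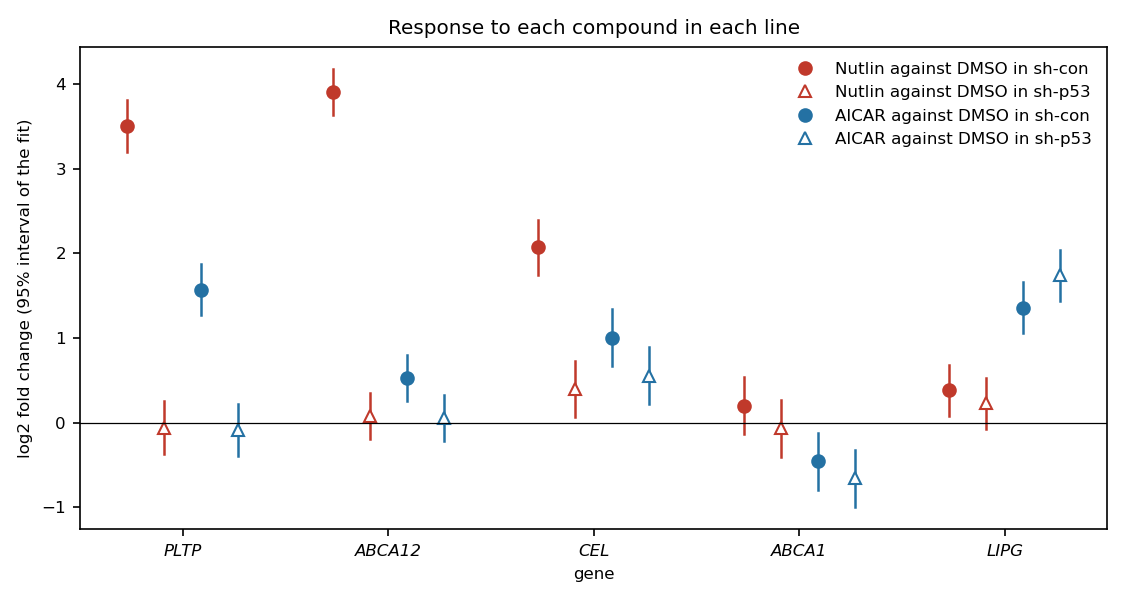
Log2 fold changes of the 5 members with Nutlin (red) and AICAR (blue) against DMSO, with circles for sh-con, open triangles for sh-p53 and bars for the 95% interval of the fit. The Nutlin interval of PLTP lies near 3.51 in sh-con, the contrast that chose it, and includes 0 in sh-p53. ABCA12, near 3.91 with Nutlin in sh-con, is drawn as a description only, since its arrays outside sh-con Nutlin were below the dim level. The LIPG intervals lie above 0 with AICAR in both lines.

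The compounds were also set side by side within sh-p53 cells, at the doses given. There, 1 member was higher with Nutlin than with AICAR and 1 was lower, of 4, against 19% and 15.6% of all genes. LIPG was lower with Nutlin, by a log2 difference of -1.51 ± 0.14 (2.86-fold, adjusted p = 4.76e-07, limma), and ABCA1 was higher, by 0.59 ± 0.16 (adjusted p = 0.0086, limma; 0.57 and adjusted p = 0.0527 without array 1 of sh-p53 AICAR). PLTP (0.03 ± 0.15, adjusted p = 0.907) and CEL (-0.15 ± 0.16, adjusted p = 0.491) did not pass in limma, and ABCA12 read 0.03 higher.

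The scale of the arrays moved some of these counts. Centring each array on its median over all probe sets shifted the median gene by -0.141 in the AICAR comparison in sh-con, by -0.152 in sh-p53 and by 0.107 in Nutlin against AICAR in sh-p53. The share of higher genes among those called then went from 38.7% to 22%, from 42.8% to 23.1% and from 55% to 69.2%, and for the AICAR interaction from 30% to 16.9%. No call of PLTP or LIPG with AICAR changed under either scaling.

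Genes beside each member in the genome were measured as a contrast. The locus of CTSA, a lysosomal carboxypeptidase, overlaps that of PLTP in RefSeq. CTSA differed by -0.13 with Nutlin in sh-con and by 0.14 ± 0.13 with AICAR (adjusted p = 0.397, limma), and PCIF1, on the other side, by -0.21 with Nutlin and -0.59 ± 0.15 with AICAR (adjusted p = 0.00616, limma). With Nutlin both differences were below 0, and neither neighbour was called higher with AICAR in sh-con. Beside ABCA12, BARD1 differed by -2.34 and ATIC by -0.59 with Nutlin in sh-con, both below 0 where the ABCA12 difference was 3.91. CELP, the copy of CEL, read 5.95 and 6.61 in sh-con DMSO, 7.69 and 7.82 with Nutlin and 6.61 and 7.09 with AICAR, and rose with AICAR by 0.57 (adjusted p = 0.0324, limma). CELP and CEL were both higher with Nutlin in sh-con, by 1.47 ± 0.20 and 2.07 ± 0.16, and the signal cannot be assigned to either of the pair here. GTF3C5, on the other side of CEL, differed by -0.34 with Nutlin in sh-con. Beside ABCA1, SLC44A1 fell by 0.89 (log2) with AICAR in sh-con (adjusted p = 0.000197, limma) and the overlapping NIPSNAP3B was too dim to be tested. Beside LIPG, ACAA2 differed by -0.28 with AICAR in sh-con (adjusted p = 0.201, limma), and SNORD58A had differences of -1.27 and -1.95 with AICAR in sh-con and sh-p53.

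**Figure D4:**
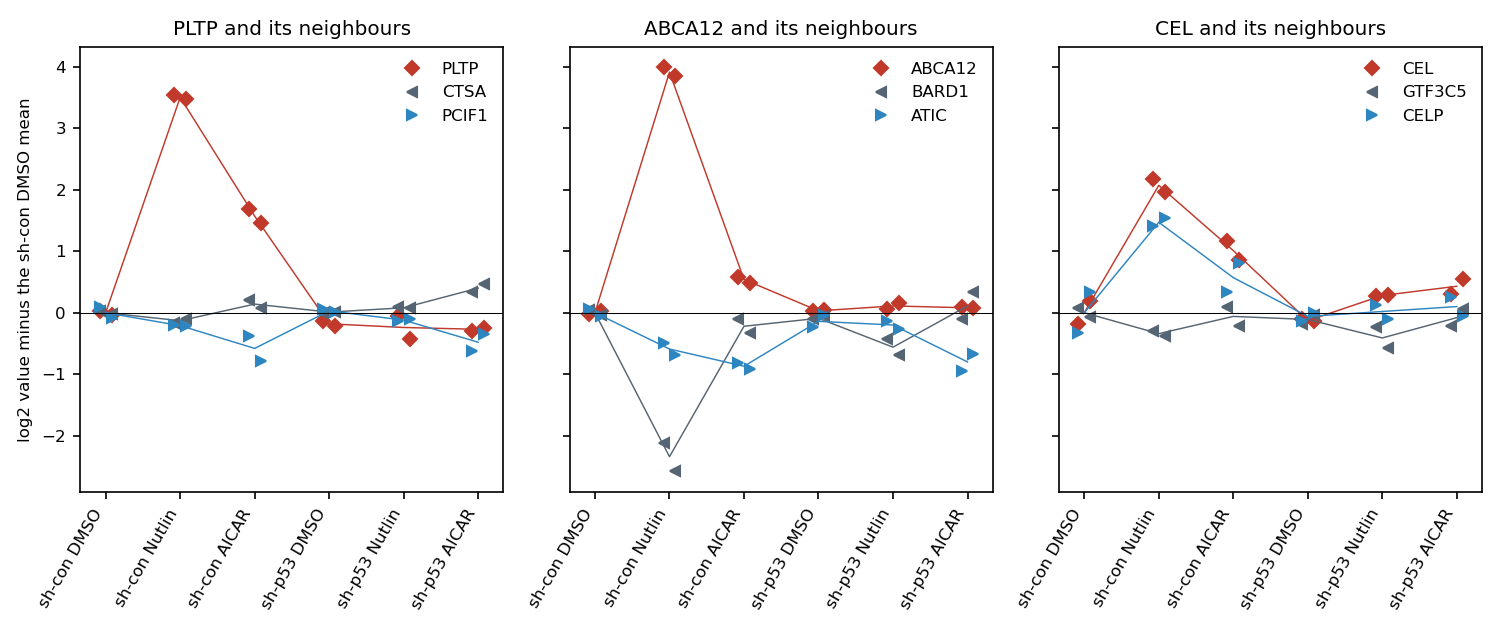
Log2 value in each of the 12 arrays minus the sh-con DMSO mean of the same gene, by group, for PLTP, ABCA12 and CEL (diamonds) and the nearest measured gene on each side (triangles), with lines through the group means. In sh-con Nutlin, PLTP and ABCA12 lie near 3.51 and 3.91 while CTSA and BARD1 lie near -0.13 and -2.34, and CELP follows CEL.

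Genes with the most similar pattern to PLTP over the 12 arrays were BTBD10 (Pearson r = 0.9889), ADGRG1 (0.9871), MRI1 (0.9865), ZNF561 (0.9861) and TRIM22 (0.9834). TRIM22 differed by 3.14 with Nutlin and 1.88 with AICAR in sh-con, and by 0.43 and 0.15 in sh-p53. ADGRG1 differed by 2.39 and 1.17 in sh-con and by 0.30 and 0.02 in sh-p53. The genes most like ABCA12 were LYVE1 (r = 0.9934), LCN15 (0.9888), FADS3 (0.9793), LAPTM5 (0.9766) and VWCE (0.9745). LYVE1 differed by 3.65 with Nutlin and 0.35 with AICAR in sh-con, and LCN15 by 3.11 and 0.18. The means of LYVE1 and TRIM22 were below the dim level in sh-con DMSO and in every sh-p53 group, so their differences can be understated. Outside sh-con Nutlin, LYVE1 was above that level only in sh-con AICAR, at 4.77. Among the members, PLTP correlated with CEL at r = 0.949 and with ABCA12 at 0.934, and ABCA1 with LIPG at -0.389. These coefficients share the same 6 group means and the same sh-con Nutlin arrays, and are a description only.

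Markers of other cell types in which these genes are known were checked in the same arrays. Of the keratinocyte markers 10 of 10 were measured, 5 with a mean below the dim level, and the highest was KRT14 at 5.85. Their summed log2 signal was 49.5 and 49.7 in sh-con Nutlin, 43.0 and 45.1 in sh-con DMSO, 45.6 and 48.7 in sh-con AICAR and 43.3 to 46.1 in the sh-p53 arrays. DSC3, a desmosomal cadherin of skin, made most of the difference, with 7.94 and 7.68 in sh-con Nutlin, 3.84 and 3.93 in sh-con DMSO and 5.01 and 4.82 in sh-con AICAR, whereas KRT1, FLG and DSG1 stayed at 4.64 or lower in every array. For the pancreatic acinar list, 8 of 12 were measured, 3 below the level, and the sums were 37.6 and 38.0 in sh-con Nutlin, 37.0 and 39.1 in sh-con AICAR, 35.3 and 36.4 in sh-con DMSO and 35.3 to 38.8 in sh-p53. CPA1, a pancreatic carboxypeptidase, read 5.81 and 5.65 in sh-con Nutlin and 4.49 and 4.63 in sh-con DMSO, and the trypsinogen gene PRSS1 stayed at 3.75 or lower.

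Of the macrophage markers 8 of 8 were measured, 4 below the dim level. With AICAR, 2 of the 4 tested rose in sh-con cells and 4 of 4 in sh-p53 cells, against 14.6% and 16.2% of all genes, in the comparisons in which LIPG rose. Their sums were 36.9 and 38.1 in sh-con DMSO, 39.4 and 40.4 in sh-con AICAR, 37.4 and 36.5 in sh-p53 DMSO and 40.3 and 39.3 in sh-p53 AICAR. CD68 read 8.38 and 8.38 in sh-con DMSO and 8.97 and 8.97 in sh-con AICAR, while CD163 stayed at 4.10 or lower in every array. All 6 endothelial markers were below the level, with sums of 23.3 to 24.8 over all arrays. Of the fibroblast markers 6 of 6 were measured, 2 below the level, with COL1A1 the highest at 6.47 and sums of 28.4 to 30.6. The part of any of these markers in the results above was not tested.

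Other genes of the same pathways were counted in lists drawn from textbook knowledge, from which the members themselves were left out. No test of a list was run, and each count is to be read against all genes, of which AICAR gave 14.6% higher and 23.2% lower for the sh-con line, then 16.2% higher and 21.6% lower for the sh-p53 line. Among genes of HDL remodelling and cholesterol efflux, 17 of 21 were tested. With AICAR in sh-con 0 rose and 2 fell, and in sh-p53 1 rose and 1 fell. VLDLR, a lipoprotein receptor, fell by 0.80 with AICAR in sh-con, ± 0.18 (adjusted p = 0.00235, limma). APOM, an apolipoprotein of HDL, differed between sh-p53 and sh-con by -0.84 ± 0.15 in DMSO (adjusted p = 0.00776, limma) and by -0.93 ± 0.15 in AICAR (adjusted p = 0.000895). The median of the list was 0.12 with AICAR in sh-con, against 0.035 over all genes, and with arrays centred -0.02, against -0.106.

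Relatives of PLTP with the BPI and LBP fold were mostly dim, and 3 of 12 were tested. BPIFB2 fell by 0.76 with AICAR in sh-p53, ± 0.14 (adjusted p = 0.000418, limma). Of the relatives of ABCA1 and ABCA12 among the ABC lipid transporters, 12 of 20 were tested. With AICAR in sh-con 1 rose and 4 fell (median 0.03, against 0.035 over all genes), and 0 rose and 3 fell in sh-p53 (median -0.03, against 0.067 over all genes). ABCG2, an exporter of drugs and urate, fell by 0.71 in sh-con, ± 0.16 (adjusted p = 0.00152, limma) and by 1.04 in sh-p53, ± 0.16 (adjusted p = 5.21e-05, limma). ABCG5, which exports sterols into bile, fell by 0.73 in sh-con, ± 0.16 (adjusted p = 0.00139, limma), and by 0.85 in sh-p53, ± 0.16 (adjusted p = 0.000393, limma). ABCA5 was the gene of this list called between the lines under AICAR, at -1.10 ± 0.17 (adjusted p = 0.000422, limma). Its arrays read 7.33 and 6.74 in sh-con AICAR, 5.86 and 6.01 in sh-p53 AICAR, 8.28 and 8.06 in sh-con Nutlin, 6.81 and 6.69 in sh-con DMSO and 6.35 and 6.35 in sh-p53 DMSO.

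Of the lipases, carboxylesterases and their cofactors, 18 of 32 were tested. With AICAR in sh-con 6 rose and 1 fell (median 0.17, against 0.035 over all genes), and in sh-p53 6 rose and 2 fell (median 0.18, against 0.067). With arrays centred the counts were 5 and 2 (median 0.03, against -0.106 over all genes), and 3 and 3 (median 0.02, against -0.085). CES2, a carboxylesterase of liver and gut, read 8.15 and 8.12 in sh-con DMSO, 9.67 and 9.40 in sh-con AICAR and 9.80 and 9.60 in sh-con Nutlin. In sh-p53 CES2 read 7.53 and 7.59 with DMSO, 7.89 and 8.02 with AICAR and 8.15 and 7.94 with Nutlin. The highest sh-p53 array, with Nutlin, was at the level of sh-con DMSO. CES2 rose by 1.40 ± 0.14 with AICAR in sh-con (adjusted p = 8.36e-07, limma), and its interaction was -1.0 ± 0.20 (adjusted p = 0.023, limma), the only AICAR interaction called in the 8 lists. That call was lost in 7 of the 8 fits that left out 1 array (adjusted p = 0.0512 to 0.118, limma), at values from -1.07 to -0.87. LMF2, a lipase maturation factor, rose in both lines, by 0.72 ± 0.14 (adjusted p = 0.000511, limma) and 1.03 ± 0.14 (adjusted p = 1.61e-05, limma), and so did CES1, by 0.71 ± 0.13 (adjusted p = 0.000372) and 0.69 ± 0.13 (adjusted p = 0.000505).

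Enzymes of sterol acylation and phospholipid remodelling moved in both directions. Of 15 tested of 20, 2 rose and 2 fell with AICAR in sh-con and 4 rose and 1 fell in sh-p53. PEMT, which makes phosphatidylcholine in liver, fell by 1.25 in sh-con, ± 0.15 (adjusted p = 5.77e-06, limma), and by 1.24 in sh-p53, ± 0.15 (adjusted p = 7.08e-06, limma). Of the intracellular lipid transfer proteins 26 of 33 were tested, and 3 rose and 8 fell in sh-con and 5 rose and 6 fell in sh-p53. STARD5, a cytosolic sterol and bile acid carrier, rose by 2.23 ± 0.21 (adjusted p = 2.83e-07, limma) and 2.91 ± 0.21 (adjusted p = 1.97e-08, limma). OSBPL10, an oxysterol-binding relative, fell by 1.39, ± 0.17 (adjusted p = 5.52e-06, limma), and by 1.45, ± 0.17 (adjusted p = 4.02e-06, limma). OSBPL10 was also 0.87 ± 0.17 higher in sh-p53 in DMSO (adjusted p = 0.0148, limma).

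Of a list of nuclear receptors, sterol regulators and related genes, 15 of 20 were tested. With AICAR 1 rose and 7 fell in sh-con (median -0.37, against 0.035 over all genes) and 2 rose and 7 fell in sh-p53 (median -0.26, against 0.067), with 23.2% and 21.6% of all genes lower, and the lower counts were 7 or 8 under both scalings. MYLIP, the ubiquitin ligase that degrades the LDL receptor, rose by 2.16 ± 0.14 (adjusted p = 6.11e-09, limma) and 2.12 ± 0.14 (adjusted p = 1.31e-08, limma). PPARG, the lipid-storage receptor, fell by 1.01, ± 0.19 (adjusted p = 0.000371, limma), and by 1.21, ± 0.19 (adjusted p = 7.04e-05, limma). NR5A2 was 1.43 ± 0.18 higher in sh-p53 than in sh-con in DMSO (adjusted p = 0.000189, limma). Of the epidermal barrier genes that work with ABCA12 in skin, 13 of 17 were tested, and 3 rose and 1 fell with AICAR in each line (medians 0.22 and 0.18). SMPD1, acid sphingomyelinase, rose by 0.88 ± 0.15 (adjusted p = 0.000132, limma) and 1.49 ± 0.15 (adjusted p = 5.78e-07, limma), and ABHD5, a lipase cofactor, by 0.83 ± 0.18 (adjusted p = 0.0012) and 0.96 ± 0.18 (adjusted p = 0.000348).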

How the data were processed

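Biotin-labelled total RNA of 12 HepG2 samples was measured on Affymetrix Human Gene arrays. The deposited values are log2 signals, 1 per probe set and array, and span 2.14 to 14.33. RMA and Partek are named in the submitters' processing notes, with versions and settings not given in the sources used here. Because RMA equalises array distributions, a shift of most genes in 1 direction would be partly removed, and no detection call is given. Precision is limited by the number of arrays.

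Of 33297 probe sets, the platform annotation, which can be old, gave 1 symbol to 19460 and several to 1754, and 12083 were not listed. Of the single symbols, 19429 had an entry in RefSeq GRCh38.p14, which was used for names, neighbours and promoter sequences. The brightest probe set with 1 symbol stood for its gene, which gave 18417 genes, 769 of them with several such probe sets. A filter at the 25th percentile of gene means (4.58) removed 4604 genes and kept 13813 for testing, among them all 5 measured members.

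Group means of all 12 arrays were fitted with limma 3.58.1 in R 4.3.3 (with data.table, version 1.17.8), with 6 residual degrees of freedom, 11.3 more from the prior and a prior SD of 0.154. Calls are at a Benjamini-Hochberg adjusted p under 0.05, 2-sided, over all genes of a comparison, and ± gives the SE of the fit. The fit was tested on simulated data. Promoters were read with Python 3.11.15 and pandas 2.3.3, and figures drawn with matplotlib 3.10.9. The members, the 8 gene lists, the 6 marker lists and the tests were chosen with earlier results of these data known. All members were named, and from each list genes called and among the 3 largest changes of a tested comparison, with both groups not overlapping except for interactions. CDKN1A and MDM2 served as a check of the labels, 5 similar genes and the nearest gene on each side were named per rule, and single marker genes were named after their values were seen. Alternatives were no filter or a filter at the 50th percentile, quantile normalisation, median centring, the mean of a gene's probe sets, array number as a block, an intensity trend in the prior, a fit of only the groups compared, and leaving out each array.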

Additional observations from a re-analysis of the deposited data

Results flagged for a closer look

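The AICAR response of PLTP differed between the lines by the test of the interaction, at -1.66 on the log2 scale, with a higher level in both sh-con AICAR arrays than in both sh-con DMSO arrays. CES2, from the list of lipases and carboxylesterases, was the other gene of the members and lists called in this interaction, at -1.0. Both comparisons used the sh-con DMSO arrays, and the cause of either difference was not tested.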

How the results depend on the processing

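Over all alternatives, and with ABCA12 left out, ABCA1, CEL and LIPG each lost a call in some, and ABCA1 gained one between the lines under AICAR. PLTP kept its calls with AICAR in sh-con (adjusted p = 5.78e-09 to 8.51e-06, limma), between the lines under AICAR and in the interaction in every alternative, and LIPG kept its calls with AICAR in both lines. The sign changed only in values that were not called: for Nutlin in sh-p53, PLTP was 0.12 without array 2 of sh-p53 Nutlin (leaving out 1 array gave -0.25 to 0.12) and ABCA1 0.04 without array 1 of sh-p53 DMSO (-0.19 to 0.04). For AICAR in sh-p53, ABCA12 was -0.03 after quantile normalisation and -0.11 after centring. CEL was 0.05 between the lines in DMSO without array 2 of sh-con DMSO (-0.31 to 0.05), and ABCA1 0.04 in the interaction without array 1 of sh-con AICAR (-0.45 to 0.04). For Nutlin against AICAR in sh-p53, PLTP was -0.16 without array 1 (-0.16 to 0.21) and ABCA12 -0.02 without array 2 (-0.02 to 0.08) of sh-p53 Nutlin.

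Calls of the members tested, with ABCA12 left out, moved as follows. With AICAR in sh-con, PLTP, CEL and LIPG kept their calls in every alternative that held them, and the stricter filter left out CEL. ABCA1 lost its call there after quantile normalisation and in a fit of the compared groups only. With AICAR in sh-p53, CEL lost its call after quantile normalisation and after centring. Between the lines in DMSO, LIPG lost its call after centring. Fits without 1 array that lost a call are given with each comparison above.

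Counts over all genes moved too. For Nutlin in sh-p53, 29 were higher and 38 lower in a fit of the compared groups only, 12 were lower under the stricter filter, 1 after quantile normalisation and 11 with an intensity trend, and 5 to 9 were higher without 1 array. Centring gave 1103 higher with AICAR in sh-con, 1100 in sh-p53, and 1342 lower for Nutlin against AICAR in sh-p53. Without 1 array, AICAR gave 1164 to 2562 higher and 2009 to 3409 lower in sh-con, and 1382 to 1848 higher and 1925 to 2813 lower in sh-p53, and Nutlin against AICAR in sh-p53 gave 1667 to 2564 higher. Between the lines in DMSO, the compared groups alone gave 63 higher and 112 lower, and leaving out 1 array 22 to 24 and 20 to 38. Between the lines under AICAR, 888 were higher after quantile normalisation and 341 in the compared groups alone, and leaving out 1 array gave 139 to 607 higher and 264 to 730 lower. In the interaction, 94 were higher under the stricter filter, 132 after quantile normalisation, 15 after centring and 102 with the trend, 216 were lower after quantile normalisation and 175 with the trend, and leaving out 1 array gave 3 to 73 higher and 35 to 170 lower. The cause of these moves was not tested, beyond the fewer genes or arrays that some alternatives hold by construction.

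Titles number the arrays of a group 1 and 2. The deviations of same-numbered arrays correlated from -0.558 to 0.567 over 15 pairs of groups, with 7 above 0.1 and 7 negative. Pairs within sh-con gave 0.252 to 0.493, and sh-con with sh-p53 Nutlin 0.355 to 0.567. The sh-p53 DMSO and sh-p53 AICAR groups gave 0.264 together. Pairs across these 2 sets were negative, but for sh-con Nutlin with sh-p53 DMSO (0.0277). Whether the samples are paired is not settled, and 1 block by number cannot take up deviations of opposite sign. With the array number as a replicate block, 0 of 35 tested values of the members changed their call, and AICAR in sh-con gave 2094 genes higher and 3209 lower. Over all alternatives together, not the block alone, 1064 values of the named list genes, CDKN1A and MDM2 were the same in sign and call. In the same count, 96 values lost a call. Signal over background limits ABCA12 outside sh-con Nutlin, and duplicates limit every interval.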
